A study of Mus musculus with 55 samples.

Results

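The clustered protocadherin genes were followed across the dorsal hippocampus of 55 mice. The members were the protein-coding genes named Pcdha, Pcdhb or Pcdhg with a number that had counts in at least 10 mice. These were 56 of the 58 genes with such a name among 55487 Ensembl genes, with 14 members in the alpha cluster, 22 in the beta cluster and 20 in the gamma cluster. Both genes left out were in the gamma cluster. Pcdhga10 had a count of 0 in all 55 mice. Of its exon bases 0.0% were free of other annotated genes, so this count cannot show whether it is expressed. Pcdhgb8, listed as a polymorphic pseudogene, had a median of 0.298 CPM (counts-per-million). CPM are scaled to the counts of each library in the genes tested, multiplied by its TMM normalization factor. On the GRCm38 assembly the members lie side by side on the plus strand of chromosome 18, with the alpha genes between 36930184 and 37187661, the beta genes between 37264938 and 37524479 and the gamma genes between 37661793 and 37841873. The gene labelled Pcdha11 in the counts with the identifier of Pcdha10 in RefSeq is called Pcdha10 here.

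Each library came from 1 adult mouse, either WT or with a knockout (KO) of Cnih3, which encodes an auxiliary subunit of AMPA receptors. The mice were on a C57/BL6j background and 10.9 to 23.7 weeks old. The WT mice were 5 males, 7 females in estrus, 4 in metestrus, 6 in diestrus and 5 in proestrus. The KO mice were 7 males, 6 females in estrus, 5 in metestrus, 6 in diestrus and 4 in proestrus. Stages of the estrous cycle were read from vaginal cytology, and each female gives 1 stage. All KO mice descended from parents that carried the mutation, while the WT mice were a mix of pups from such parents and from WT pairs. The KO line carries an exon deletion in Cnih3 and the counts cover the whole gene, so they check the genotype only weakly. Cnih3 was at 21.6 to 62.5 CPM in WT mice and 21.6 to 47.8 CPM in KO mice.

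Clustered protocadherins are cell surface proteins that bind copies of themselves on neighbouring cells. Each gene has its own promoter and its own large variable exon, and a neuron uses only a small choice of these promoters, which gives it a surface identity. In the alpha and gamma clusters the variable exon is spliced to constant exons that all genes of the cluster share and that encode most of the cytoplasmic tail. Beta genes lack constant exons and consist essentially of a single exon. The C-type genes (Pcdhac1, Pcdhac2, Pcdhgc3, Pcdhgc4 and Pcdhgc5) stand at the far end of the alpha and gamma clusters and are used more evenly across neurons than the others. The proteins are known for self-avoidance and arborization of dendrites, spine formation and survival of interneurons. Choice of promoter depends on DNA looping by CTCF and cohesin and on DNA methylation.

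The shared exons limit what the counts can measure. The authors counted reads per gene, and a base that several annotated genes share cannot be given to 1 of them. The share of exon bases that no other annotated gene overlaps was 7.00 to 51.4% in the alpha members and 26.4 to 68.5% in the gamma members. In the beta cluster 19 of 22 members were free of overlap over their whole length. Levels between genes are therefore given as CPM per kb of exon free of other genes.

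Members of 1 cluster differed widely in level. The median level per kb was 0.465 CPM in the alpha cluster, 0.667 in the beta cluster and 0.559 in the gamma cluster, with an 87.6-fold range from the highest to the lowest member in the alpha, 329-fold in the beta and 19.2-fold in the gamma cluster. The highest alpha member was Pcdhac2, a C-type gene, at 2.43 ± 0.475 CPM per kb (SD, n = 55 mice), followed by Pcdha12 at 1.37 ± 0.416. Pcdha11 was the lowest of the alpha cluster at 0.0278 ± 0.0359 CPM per kb, with counts in 29 mice. Both of the lowest alpha genes, Pcdha11 and Pcdha4, had under 17% of their exon bases free of other genes.

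In the beta cluster Pcdhb9 was highest at 3.10 ± 0.772 CPM per kb. Pcdhb7 (2.18), Pcdhb12 (2.06), Pcdhb17 (1.65) and Pcdhb20 (1.46) came next in CPM per kb. Pcdhb12 had 36.5% of its exon bases free of other genes. Over its whole exon length it was at 0.753 CPM per kb and rank 8 of the beta genes. Pcdhb1 was close to absent at 0.0094 ± 0.0154 CPM per kb and had counts in 21 mice. The gamma cluster was led by the C-type genes Pcdhgc5, at 2.63 ± 0.966 CPM per kb, and Pcdhgc3, at 1.83 ± 0.620, ahead of Pcdhga11 at 1.43. Its lowest member was Pcdhgb5 at 0.137 ± 0.0697. The SDs of Pcdhgc5 and Pcdhgc3 overlap, as do those of Pcdhb7, Pcdhb12 and Pcdhb17. The 3 members with the highest CPM, not scaled to length, held 56.7% of the summed CPM of the alpha cluster, 33.2% of the beta cluster and 47.7% of the gamma cluster.

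**Figure D1:**
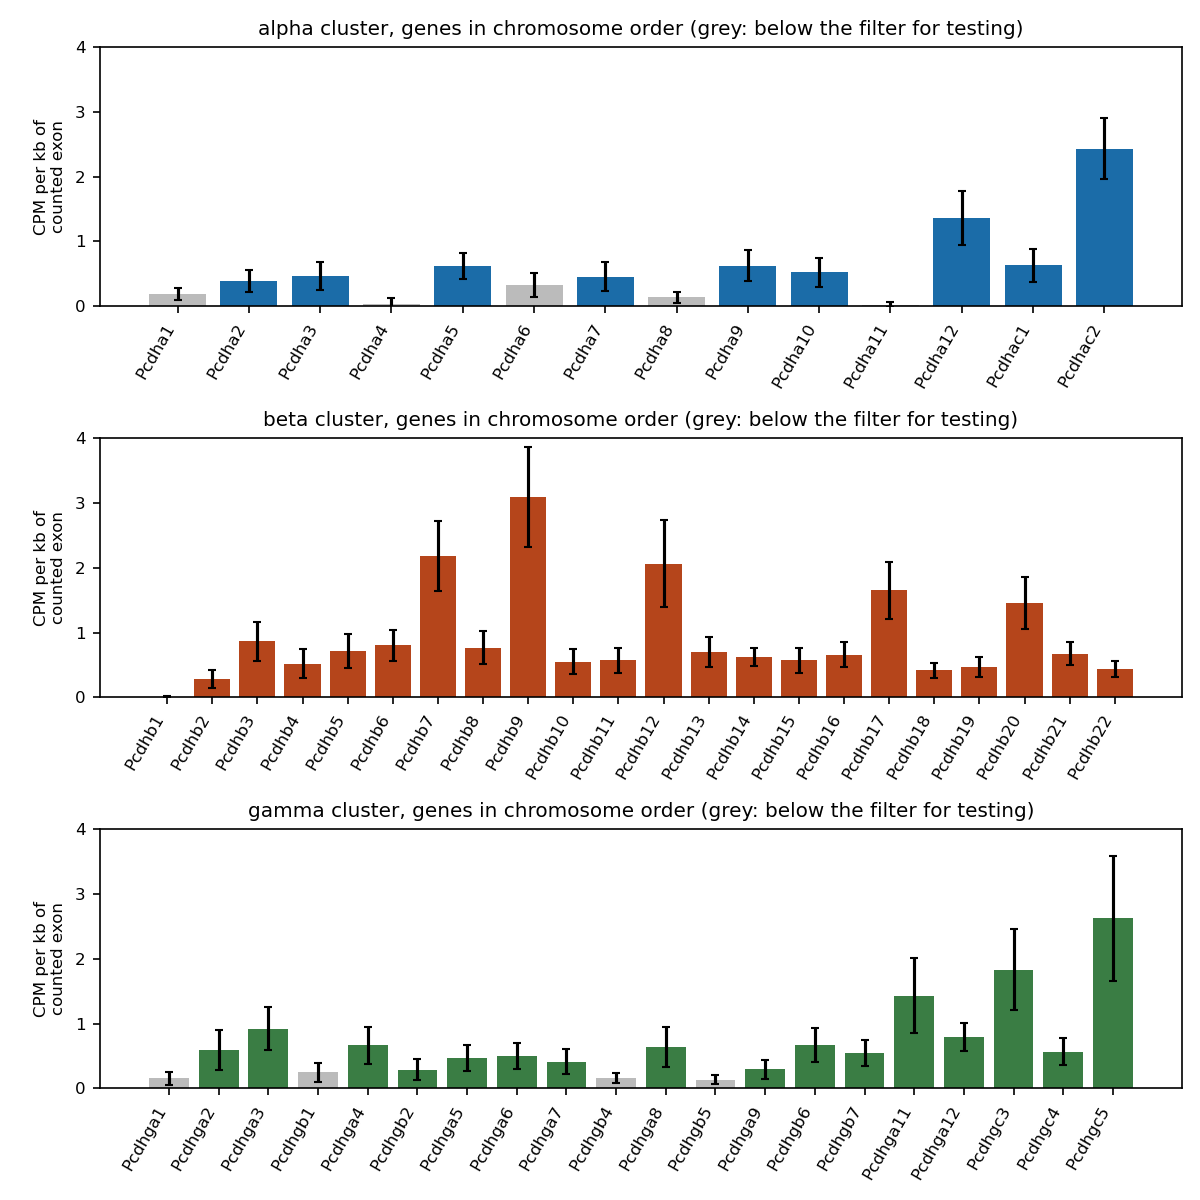
Level of each of the 56 members in CPM per kb of exon free of other genes, in the order of the genes along the chromosome, with bars for the mean of 55 mice, whiskers for the SD and grey bars for the 10 members below the filter for testing. The C-type genes Pcdhac2 and Pcdhgc5 lead the alpha and gamma clusters at 2.43 and 2.63, and Pcdhb9 leads the beta cluster at 3.10.

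In rank, start position and level per kb were related unevenly over the clusters. The rank correlation across genes of start position with CPM per kb was 0.53 in the alpha cluster (14 genes), 0.46 in the gamma cluster (20 genes) and -0.01 in the beta cluster (22 genes). The length of exon free of other genes, by which the level is divided, had a rank correlation with the level of 0.53 in the alpha, -0.40 in the gamma and -0.15 in the beta cluster. These are descriptions, since neighbouring genes are not independent of each other.

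The estimated counts per transcript, which assign shared exons as well, gave another order in the alpha and gamma clusters. Transcript CPM are scaled to the total of each library alone and are not divided by length. In the alpha cluster Pcdha4 rose from rank 13 in CPM per kb to rank 3 in transcript CPM, at 15.5 CPM against 0.0145 from the gene counts. Pcdha11 rose from rank 14 to rank 9. Pcdhgc4 rose from rank 10 of the gamma genes in CPM per kb to rank 1 in transcript CPM, at 268 ± 35.1 CPM against 1.98 ± 0.719 from the gene counts, and 99.6% of its estimated counts were on 1 of its 2 transcripts. Pcdhgc5 fell from rank 1 to rank 13, with 3.61 CPM in transcripts against 12.1 CPM in gene counts. The summed level of the gamma cluster was 362 CPM in transcripts and 39.2 CPM in genes, that of the alpha cluster 128 and 20.5 CPM, and that of the beta cluster 103 and 74.7 CPM. The median ratio of transcript to gene CPM was lowest for beta members at 1.35, compared with 5.21 for alpha and 3.18 for gamma members. The totals behind both scales differ, since Pcdhac2 had 546 estimated counts at 35.4 transcript CPM and 357 gene counts at 7.36 CPM. The ratios therefore compare clusters with each other and do not show which cluster moved least. All values below are from gene counts unless transcripts are named.

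Of the 56 members, 46 had over 1 CPM in at least 10 libraries and were tested (9 alpha, 21 beta and 16 gamma). Pcdha1, Pcdha4, Pcdha6, Pcdha8, Pcdha11, Pcdhb1, Pcdhga1, Pcdhgb1, Pcdhgb4 and Pcdhgb5 were not. The coefficient of variation over the 55 mice had a median of 35.6% in tested members, compared with 27.3% over 6898 tested genes in the same range of mean CPM. These genes were not matched to the members in level within the range. The coefficient fell with level across members, with rank correlations of -0.94 in the alpha, -0.47 in the beta and -0.74 in the gamma cluster. Total counts per library were 25881300 to 63547100 with a median of 53384200, and mean counts of the members were 0.745 to 599 per library.

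A set of 7 diestrus libraries stood apart from the other diestrus libraries. They were the diestrus mice under 14 weeks of age, WT diestrus replicates 3, 4 and 5 and KO diestrus replicates 2 to 5. The split at 14 weeks was made after the data were seen. Their numbers in the sample titles ran from 532 to 645, a range that held 0 other mice, so age, breeding cohort and any shared handling cannot be told apart. All 7 came from mutation-carrying parents, as did 3 of the 5 older diestrus mice. Of the WT mice, 4 in diestrus and 1 in estrus had such parents, while 2 and 6 came from WT pairs. Parents were thus partly confounded with age in WT diestrus and with WT diestrus against WT estrus. In these 7 mice the summed CPM of 5 nuclear-retained RNAs (Malat1, Meg3, Neat1, Miat and Kcnq1ot1) was 344 to 650, compared with 1822 to 3474 in the 5 older diestrus mice. Summed markers of CA1 pyramidal cells were at 118 to 169 CPM against 204 to 265, those of dentate granule cells at 104 to 137 against 134 to 183, of microglia at 91.2 to 128 against 123 to 139, of oligodendrocyte precursors at 15.5 to 22.9 against 20.2 to 28.4, and those of mature oligodendrocytes at 3224 to 4135 against 3527 to 5778. Choroid plexus markers were at 129 to 1131 CPM against 23.5 to 167, although 2196 CPM was reached outside diestrus, interneuron markers at 815 to 1034 against 686 to 890, astrocyte markers at 799 to 943 against 708 to 914 and endothelial markers at 9.30 to 15.8 against 10.5 to 16.2. Total counts were 52308000 to 58932900 against 38769200 to 56890800. RNA had been taken from the supernatant of a centrifuged detergent lysate of the tissue. The part of these differences in the levels of the members was not tested. The counts of members called in the comparisons of diestrus with males, proestrus or estrus are therefore given with and without these mice. In bulk tissue, fewer cells of a type and less RNA per cell cannot be told apart.

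By mean, the alpha and beta sums were lowest in diestrus in both genotypes. Summed beta CPM was 92.7 ± 5.76 in WT estrus (SD, n = 7), 83.6 ± 2.93 in WT metestrus (n = 4), 82.7 ± 18.4 in WT males (n = 5), 73.2 ± 6.65 in WT proestrus (n = 5) and 62.6 ± 19.1 in WT diestrus (n = 6). In KO mice it was 78.5 ± 10.9 in estrus (n = 6), 73.6 ± 7.29 in metestrus (n = 5), 70.6 ± 9.87 in proestrus (n = 4), 68.8 ± 8.88 in males (n = 7) and 61.4 ± 19.0 in diestrus (n = 6). All 7 WT estrus mice (84.4 to 101.1 CPM) lay above all 6 WT diestrus mice (43.4 to 82.6 CPM), while the KO estrus mice (58.5 to 88.2 CPM) overlapped with the KO diestrus mice (43.8 to 91.2 CPM). WT estrus and WT metestrus, neighbours in this order, overlapped in range (80.1 to 86.8 CPM in metestrus), and all other neighbours in either order differed by less than the larger of their SDs. In the gamma cluster the SD reached 16.1 CPM in WT males around a mean of 39.4 CPM, and the group means lay between 29.6 and 48.4 CPM. The gamma mean was 33.8 ± 14.5 CPM in WT proestrus (n = 5) and 34.7 ± 14.0 CPM in WT diestrus (n = 6), a difference within the SDs. Without WT proestrus replicate 5, which had the lowest gamma sum of all mice at 11.5 CPM, the WT proestrus mean was 39.4 ± 8.51 CPM (n = 4).

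Within diestrus the 7 younger mice had beta sums of 43.4 to 58.0 CPM and the 5 older mice 77.9 to 91.2 CPM. The alpha sums were 12.7 to 17.0 CPM in the younger and 20.3 to 26.3 CPM in the older diestrus mice, and the gamma sums 21.1 to 40.0 and 36.7 to 53.2 CPM. The older diestrus mice lay within the range of the 43 mice outside diestrus, which was 14.9 to 29.0 CPM for alpha, 54.8 to 101.1 for beta and 11.5 to 60.8 for gamma. The 10 other mice under 14 weeks had beta sums of 57.1 to 85.0 CPM. The share of the clusters in the members' CPM differed by age in KO diestrus mice and overlapped in WT diestrus mice. In KO mice the beta cluster held 47.4 to 54.2% in the younger (n = 4) and 56.6 to 57.5% in the older mice (n = 2), and the gamma cluster 29.9 to 38.8% and 27.6 to 28.5%, so neither share overlapped. In WT mice (n = 3 each) the beta cluster held 53.9 to 56.4% in the younger and 51.0 to 58.0% in the older mice, and the gamma cluster 27.3 to 29.8% and 27.1 to 32.8%. These differences in share were not tested.

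**Figure D2:**
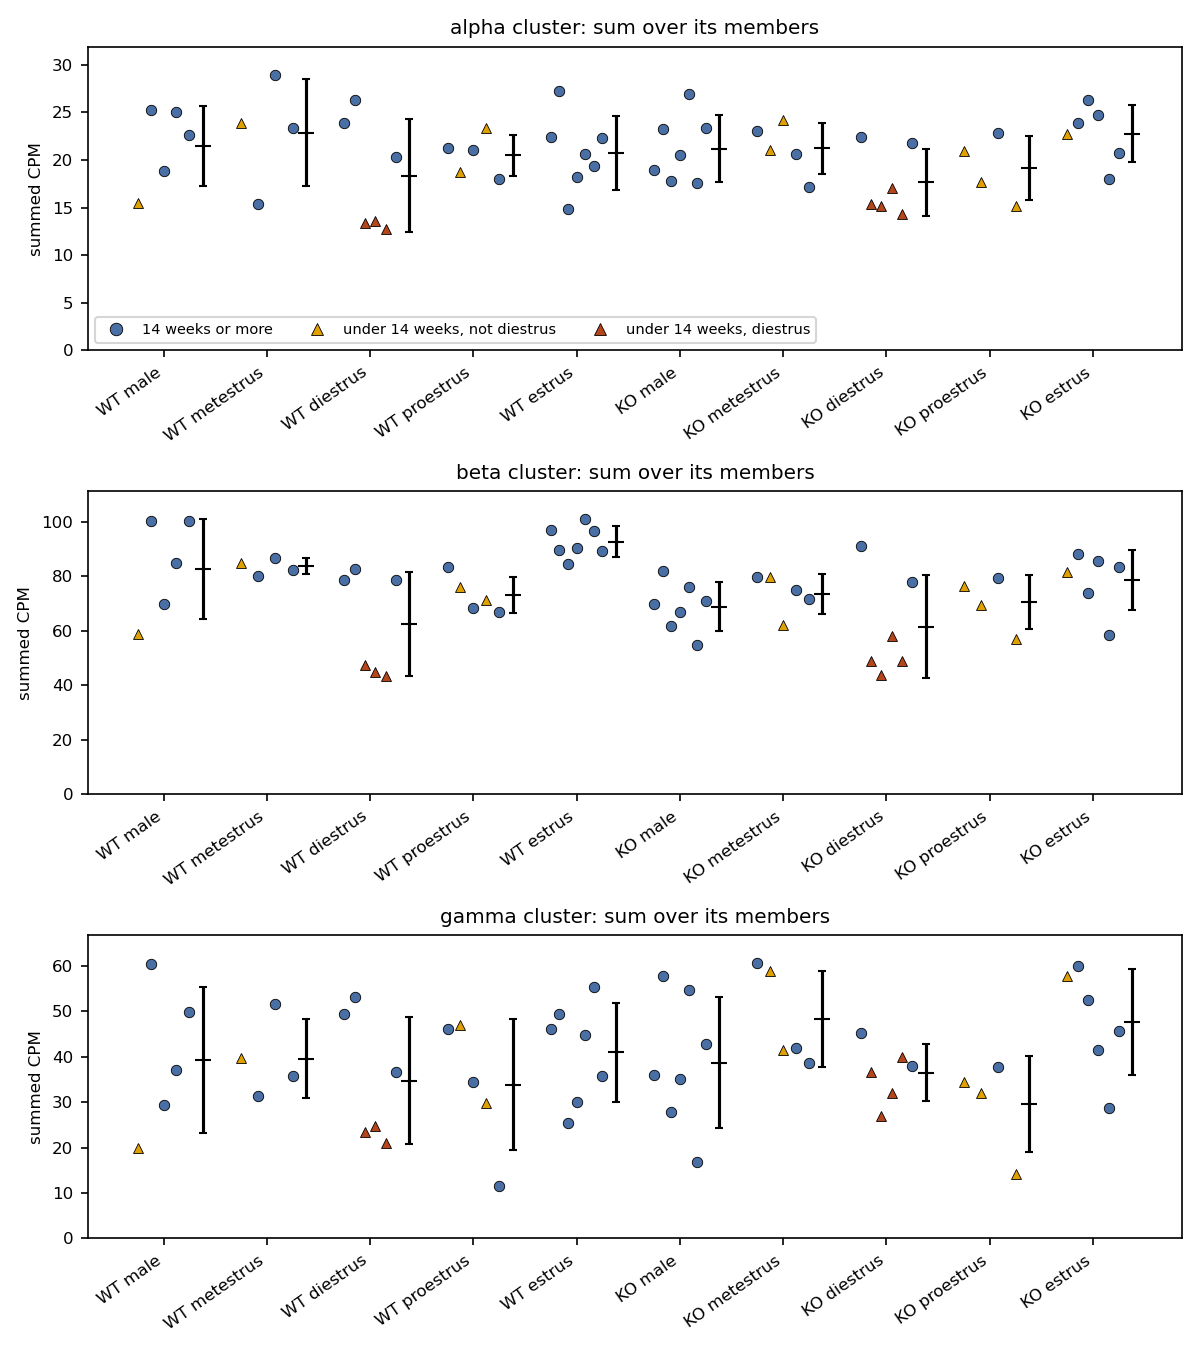
Summed CPM of the alpha, beta and gamma clusters in each of the 55 mice by group, with circles for mice of 14 weeks or more, triangles for younger mice (dark red in diestrus, yellow in other groups) and the mean and SD of each group beside the points. The 7 diestrus mice under 14 weeks lie between 43.4 and 58.0 CPM in the beta cluster, below the 5 older diestrus mice at 77.9 to 91.2 CPM.

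The 7 younger diestrus mice were low in both nuclear-retained RNA (344 to 650 CPM) and the beta sum (43.4 to 58.0 CPM). Single mice outside diestrus departed from this pairing. WT male replicate 2 had 647 CPM of nuclear-retained RNA, as low as the younger diestrus mice, and a beta sum of 100.2 CPM, among the highest. KO male replicate 6 had 3350 CPM of nuclear-retained RNA and a beta sum of 54.8 CPM. Both mice are examples picked for their values. The limma fit gave their libraries quality weights of 0.561 (WT male replicate 2) and 0.280 (KO male replicate 6). Over all mice these weights ran from 0.194 to 2.35. The relation between nuclear-retained RNA and the beta sum across all mice was not tested. 

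**Figure D3:**
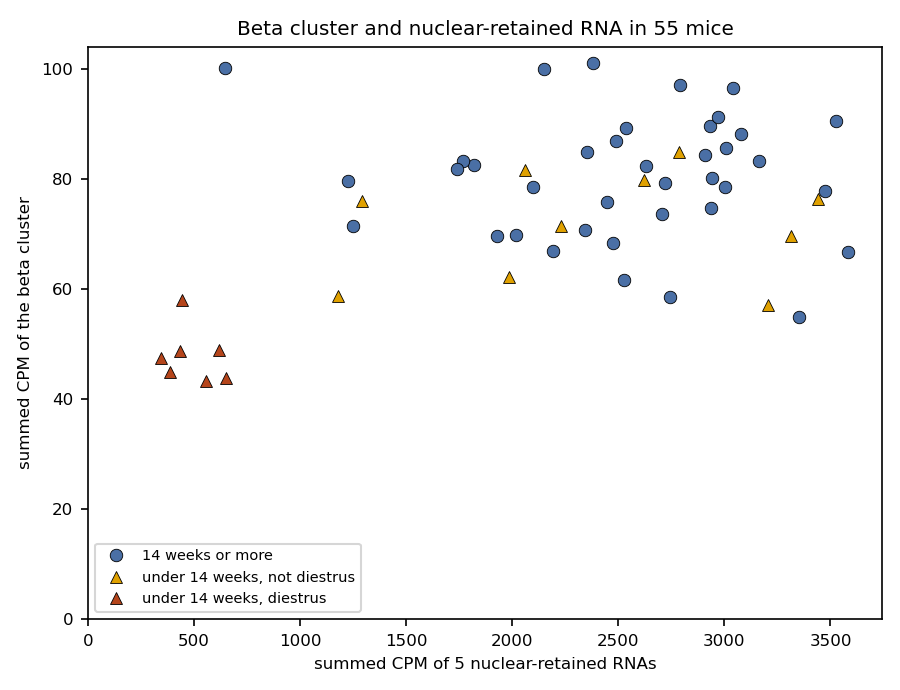
Summed CPM of the beta cluster against the summed CPM of 5 nuclear-retained RNAs, with 1 point per mouse, marked by age and stage. The 7 diestrus mice under 14 weeks lie together at 344 to 650 CPM of nuclear-retained RNA and 43.4 to 58.0 CPM of beta genes, and WT male replicate 2 lies at 647 and 100.2 CPM.

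Stages were compared in 1 limma model with a mean for each group, and a gene was called at a false discovery rate (FDR) under 0.05 by the Benjamini-Hochberg method over all 16168 genes tested. Log2 fold changes are the first group minus the second. In WT mice, members were lower in diestrus than in estrus. Of the 46 members tested, 15 were called lower and 0 higher, compared with 13.1% of all genes called lower, a smaller share than that of the members. They were 13 of 21 beta, 1 of 9 alpha and 1 of 16 gamma members. The median log2 fold change was -0.59 over the members and -0.71 over the beta genes, compared with -0.01 over all genes, and all 21 beta genes were below 0.

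Pcdhb17, a beta gene, had the smallest FDR. It was at 8.29, 10.4 and 12.3 CPM (lowest, median and highest) in WT estrus, at 3.72, 3.86 and 4.25 CPM in the younger WT diestrus mice and at 6.18, 8.39 and 9.42 CPM in the older ones. The younger mice lay below all estrus mice and the older ones overlapped with them. Its log2 fold change was -1.001 ± 0.176 (SE, FDR = 0.000451).

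Pcdhb3, nearer to the start of the beta cluster, was at 3.47, 4.68 and 5.62 CPM in WT estrus, at 1.30, 1.54 and 1.77 CPM in the younger and at 2.05, 2.91 and 4.47 CPM in the older WT diestrus mice. Again only older diestrus mice reached the range of estrus. The log2 fold change was -1.28 ± 0.24 (FDR = 0.000482). Other beta genes called were Pcdhb12 (-1.12 ± 0.25, FDR = 0.00158), Pcdhb16 (-0.99 ± 0.23, FDR = 0.00204), Pcdhb19 (-0.99 ± 0.23, FDR = 0.00234), Pcdhb14 (-0.78 ± 0.19, FDR = 0.00331), Pcdhb5 (-1.07 ± 0.30, FDR = 0.00940) and Pcdhb4 (-1.09 ± 0.31, FDR = 0.0108). The other beta genes called were Pcdhb22, Pcdhb7, Pcdhb10, Pcdhb9, the highest beta gene by level, and Pcdhb2. Pcdhga2 and Pcdha5 were the gamma and alpha genes called.

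Without WT diestrus replicate 3, 4 or 5, in turn, 0 members were called in this comparison, and without replicate 1, 2 or 6 the count was 29, 29 and 30. With only the older diestrus mice 0 of 46 members were called by limma, with 7 at an unadjusted p under 0.05, and the median was 0.00, and 0 genes of all tested were called. With only the younger ones 31 members were called lower, compared with 23.6% of all genes. By edgeR's quasi-likelihood test 0 members passed, with 16 at an unadjusted p under 0.05, and 2 genes of all tested did. By DESeq2 4 members passed, of 132 genes in all.

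Against WT proestrus, 3 members were called lower in WT diestrus and 0 higher, compared with 7.0% of all genes called lower, which is near the share of the members. Pcdhb5 had a log2 fold change of -1.09 ± 0.33 (FDR = 0.0294), Pcdhb3 of -0.80 ± 0.27 (FDR = 0.0472) and Pcdha5 of -0.96 ± 0.32 (FDR = 0.0485). Pcdha5 was at 0.435, 1.36, 1.62, 1.66 and 2.06 CPM in WT proestrus and at 0.433, 0.974 and 1.49 CPM (lowest, median and highest) in WT diestrus, so the groups overlapped. The count was 0 without WT diestrus replicate 3, 4 or 5 or WT proestrus replicate 3, and 11, 15 and 13 without WT diestrus replicate 1, 2 or 6. It was 0 with only the older diestrus mice, where 0 genes of all tested were called, and 16 with only the younger ones, where 20.8% of all genes were called lower.

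Against WT males, 0 members were called, as were 0.068% of all genes. At an unadjusted p under 0.05 there were 13 of 46 members, compared with 16.2% of all genes, and by edgeR and DESeq2 7 each, with 0 members called by either, of 8 and 9 genes called in all. The median log2 fold change was -0.47 over the members and -0.02 over all genes. WT males were themselves spread widely, with Pcdhb17 at 4.74, 9.21, 9.42, 10.1 and 10.7 CPM. Without 1 of the WT males, replicate 1, 2 or 3, the count was 9 each time, and without WT diestrus replicate 1, 2 or 6 it was 8, 9 and 10. It was 0 with only the older diestrus mice, where 6 genes of all tested were called, and 16 with only the younger ones, where 13.9% of all genes were called lower.

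KO mice in diestrus were lower than KO males in 9 members, with 0 higher, compared with 18.0% of all genes called lower. These were 3 alpha and 6 beta members, and 0 gamma members. The median log2 fold change was -0.41 over the members and -0.00 over all genes. Pcdhb17 was at 4.94, 7.50 and 8.76 CPM (lowest, median and highest) in KO males, at 3.45, 3.75, 4.78 and 5.36 CPM in the 4 younger KO diestrus mice and at 8.92 and 10.2 CPM in both older ones. The younger diestrus mice lay at the bottom of the male range or below it and the older ones above it. Its log2 fold change was -0.72 ± 0.15 (FDR = 0.000363).

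The other members called against KO males were Pcdha5 (-0.82 ± 0.23, FDR = 0.00659), Pcdhb21 (-0.67 ± 0.19, FDR = 0.00684), Pcdhb12 (-0.74 ± 0.22, FDR = 0.00886), Pcdhac2 (-0.45 ± 0.14, FDR = 0.0141), Pcdhb10 (-0.71 ± 0.25, FDR = 0.0273), Pcdha7 (-1.05 ± 0.39, FDR = 0.0353), Pcdhb20 (-0.49 ± 0.18, FDR = 0.0376) and Pcdhb7. The share of 9 in 46 was close to that of all genes. With only the older diestrus mice 0 members were called, with 3 at an unadjusted p under 0.05, the median was 0.12, and 7 genes of all tested were called. With only the younger ones 17 were called lower, compared with 19.4% of all genes. Without KO diestrus replicate 2 or 5 the count was 4 and 5. By edgeR and DESeq2 it was 0, with 3 each at an unadjusted p under 0.05, while 3.39% and 4.73% of all genes were called lower.

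Against KO proestrus, 8 members were called lower in KO diestrus and 0 higher, compared with 19.4% of all genes called lower, again near the share of the members. The clusters parted in this comparison, with a median log2 fold change of -0.47 over the 21 beta genes, of which 20 were negative, and of 0.14 over the 16 gamma genes, of which 13 were positive. Over all genes the median was -0.03. The gamma sum of KO proestrus replicate 4 was 14.1 CPM, compared with 32.0 to 37.8 CPM in the other KO proestrus mice. The part of this mouse in the positive gamma values was not tested. Members of a cluster are not independent of each other, so these counts of signs are descriptions. The members called were Pcdhb10 (-1.24 ± 0.27, FDR = 0.000327), Pcdhb12 (-0.99 ± 0.24, FDR = 0.00115), Pcdhb17 (-0.65 ± 0.17, FDR = 0.00301), Pcdhb5 (-0.86 ± 0.29, FDR = 0.0188), Pcdhb22 (-0.63 ± 0.22, FDR = 0.0223), Pcdhb21 (-0.62 ± 0.22, FDR = 0.0235), Pcdhb3 (-0.63 ± 0.22, FDR = 0.0236) and Pcdha7 (-1.14 ± 0.44, FDR = 0.0359). The count was 4, 4, 5 and 5 without KO diestrus replicate 3, KO proestrus replicate 2, KO diestrus replicate 2 and KO proestrus replicate 1, and 0 with only the older diestrus mice, where 0 genes of all tested were called. With those mice alone the median was 0.24 over the beta genes, of which 6 were negative, and 0.40 over the gamma genes, of which 13 were positive. With only the younger ones 10 members were called lower, compared with 20.0% of all genes. By edgeR and DESeq2 the count was 0, with 1 each at an unadjusted p under 0.05, while 3.97% and 5.03% of all genes were called lower.

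Against KO estrus, 17 members were called lower in KO diestrus and 0 higher, compared with 19.3% of all genes called lower. They came from all 3 clusters, with 3 alpha, 11 beta and 3 gamma members, and 42 of 46 members were negative with a median of -0.56 (-0.01 over all genes). The smallest FDRs were those of Pcdhb17 (-0.66 ± 0.16, FDR = 0.00229), Pcdhb19 (-0.85 ± 0.21, FDR = 0.00281), Pcdhac2 (-0.59 ± 0.15, FDR = 0.00312), Pcdhb12 (-0.90 ± 0.23, FDR = 0.00318), Pcdhb2 (-2.18 ± 0.58, FDR = 0.00395), Pcdhb3 (-0.78 ± 0.21, FDR = 0.00425), Pcdhga2 (-1.22 ± 0.38, FDR = 0.0127) and Pcdha12 (-0.72 ± 0.23, FDR = 0.0153). The count was 8, 9, 10 and 10 without KO diestrus replicate 2 or 3 or KO estrus replicate 2 or 6, in this order. With only the older diestrus mice it was 0, also at an unadjusted p under 0.05, and the median was 0.02, while 0 genes of all tested were called and 125 had an unadjusted p under 0.05. With only the younger ones 20 members were called lower, compared with 20.8% of all genes. By edgeR and DESeq2 it was 0, with 6 and 7 at an unadjusted p under 0.05, and 8 and 119 genes of all tested were called lower.

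**Figure D4:**
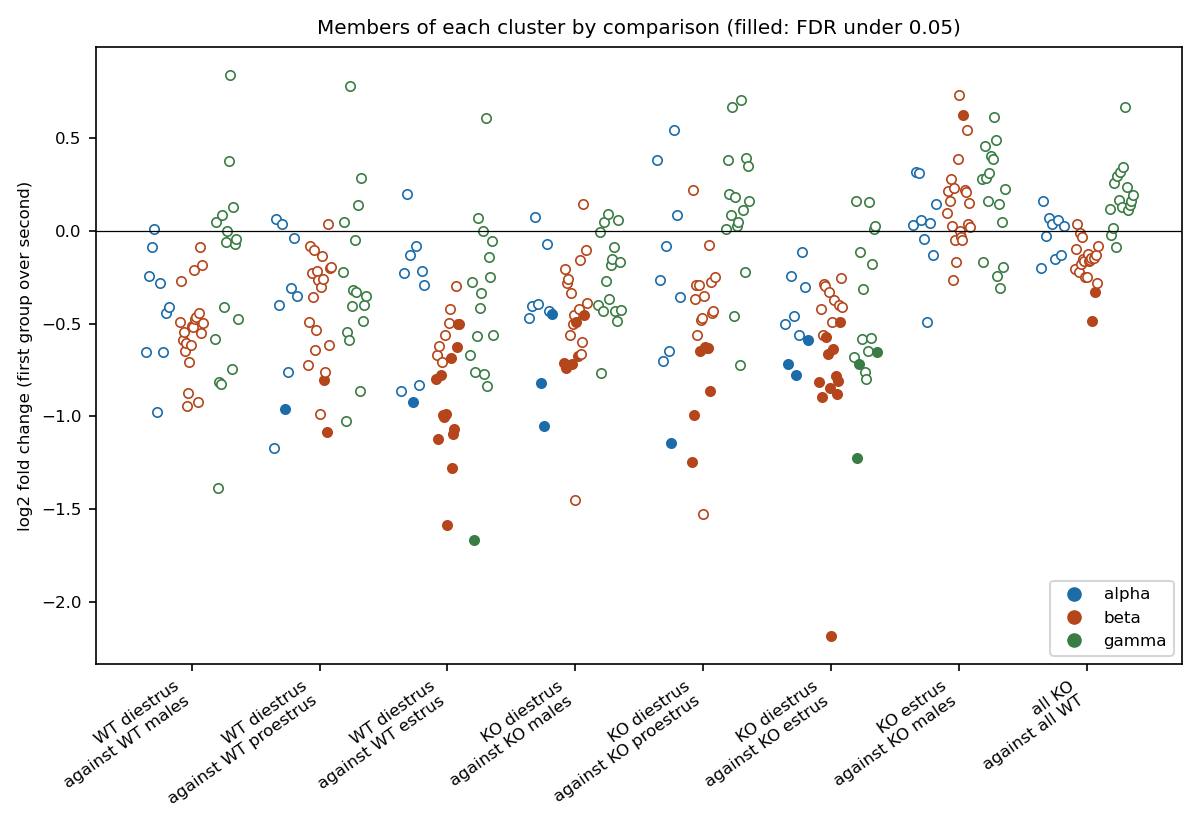
Log2 fold change of each of the 46 tested members, by cluster, in the comparisons of diestrus with males, proestrus and estrus, of KO estrus with KO males and of KO with WT mice, with members called at an FDR under 0.05 filled. In WT diestrus against WT estrus all 21 beta genes lie below 0, and in KO against WT mice 20 of 21 beta genes lie below and 14 of 16 gamma genes above 0.

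The younger and the older diestrus mice were then compared directly, both genotypes weighted equally, in a model chosen after the data were seen. The split was made with these same counts known. The FDRs and counts of this comparison therefore describe the split and are no independent test of it. In the younger mice 26 of 46 members were lower and 0 higher, compared with 20.1% of all genes lower. They were 18 of 21 beta, 5 of 16 gamma and 3 of 9 alpha members, and the median log2 fold change was -0.72, compared with -0.01 over all genes. The lowest FDR was again that of Pcdhb17, at -1.06 ± 0.14 (FDR = 3.06e-08), followed by Pcdhb3 (-1.15 ± 0.20, FDR = 1.28e-05), Pcdhb16 (-1.005 ± 0.187, FDR = 3.84e-05), Pcdhb13 (-1.16 ± 0.23, FDR = 8.85e-05) and Pcdhga2 (-1.98 ± 0.40, FDR = 0.000106). By edgeR 23 members were lower, compared with 3051 of all 16168 genes tested. In 11 of the 46 members all 7 younger mice lay below all 5 older ones, compared with 9.51% of all genes. These were Pcdha3, Pcdhac2, Pcdhb2, Pcdhb5, Pcdhb7, Pcdhb9, Pcdhb13, Pcdhb17, Pcdhb20, Pcdhga2 and Pcdhga8.

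The C-type members, set apart in the cluster by their position and even use, were not all called. Pcdhac2 was at 3.67, 5.06 and 5.30 CPM in the younger and 8.40, 8.62 and 9.62 CPM in the older WT diestrus mice. In KO diestrus it was at 5.05, 5.33, 5.78 and 5.96 CPM in the younger and 6.78 and 7.42 CPM in the older mice, so the ages did not overlap in either genotype. It was called in KO diestrus against KO males and against KO estrus, and in the younger against the older diestrus mice (-0.62 ± 0.15, FDR = 0.000857).

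Pcdhgc5 was at 5.42, 5.58 and 6.78 CPM in the younger and 12.0, 16.7 and 16.8 CPM in the older WT diestrus mice, and at 6.97, 9.36, 10.5 and 11.5 CPM in the younger and 11.4 and 13.2 CPM in the older KO diestrus mice. The ages overlapped in KO mice only. It was called in KO diestrus against KO estrus with a log2 fold change of -0.65 ± 0.23 (FDR = 0.0277), which was 0.23 and not called in the transcript counts. In the younger against the older diestrus mice it was -0.82 ± 0.23 (FDR = 0.00556). Pcdhac1, Pcdhgc3 and Pcdhgc4 were called in 0 of the 12 comparisons, with FDRs of at least 0.224, 0.264 and 0.396. In KO diestrus against KO estrus the log2 fold changes were -0.30 ± 0.30 for Pcdhac1, 0.01 ± 0.23 for Pcdhgc3 and 0.03 ± 0.27 for Pcdhgc4.

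**Figure D5:**
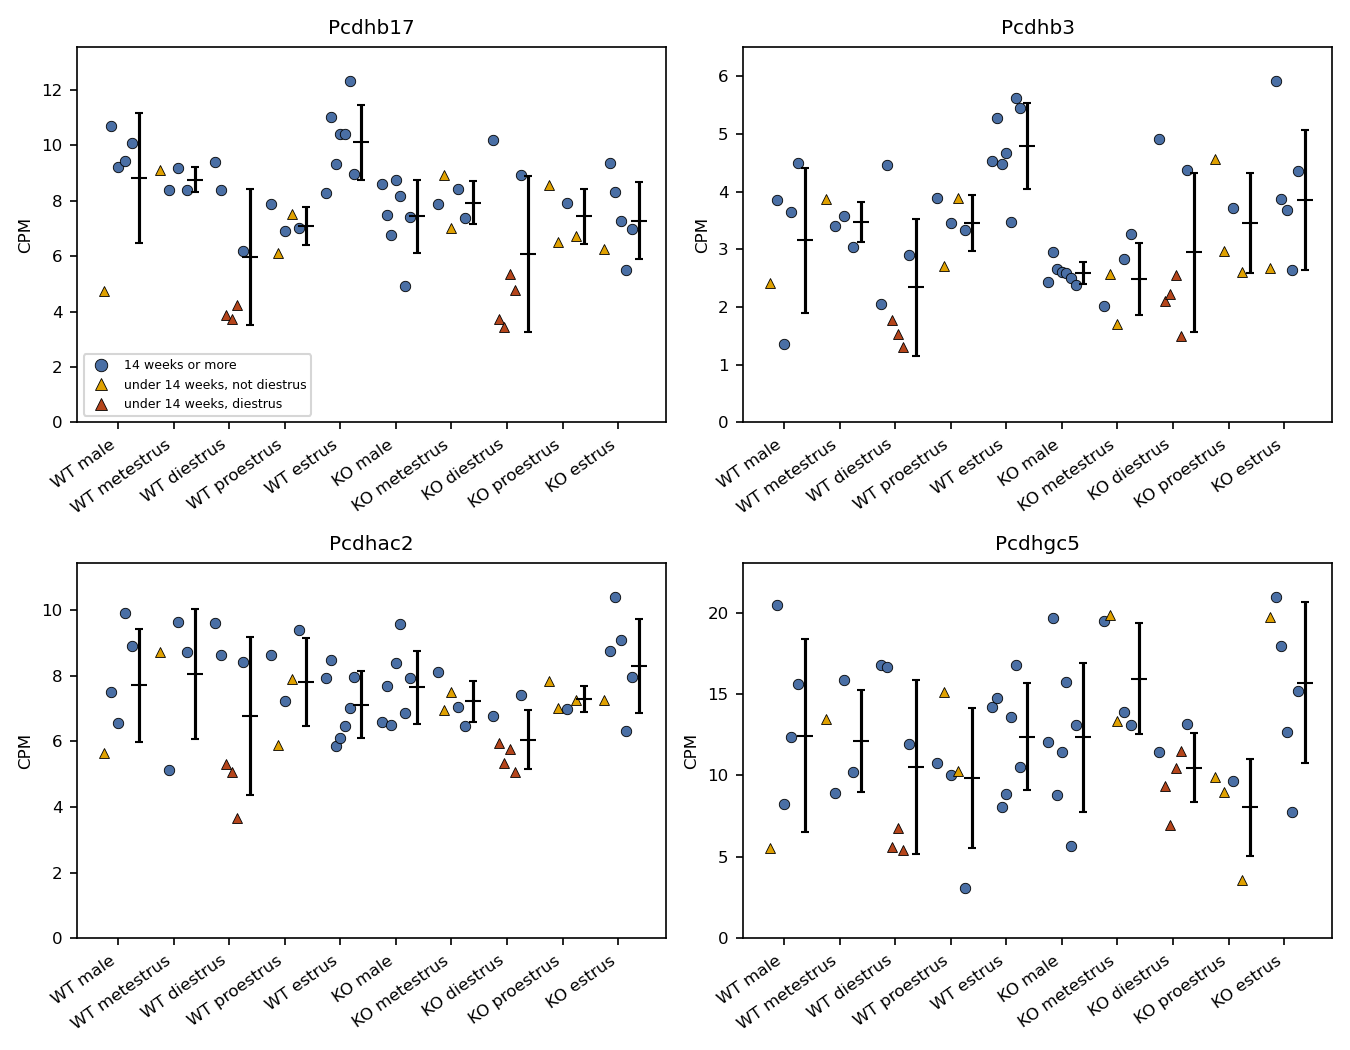
CPM of Pcdhb17, Pcdhb3, Pcdhac2 and Pcdhgc5 in each of the 55 mice by group, with circles for mice of 14 weeks or more, triangles for younger mice (dark red in diestrus, yellow in other groups) and bars for the mean and SD of each group. In Pcdhb17 the 7 younger diestrus mice lie at 3.45 to 5.36 CPM and the 5 older ones at 6.18 to 10.2 CPM.

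Estrus was compared with males in KO mice. A single member, Pcdhb3, was called higher and 0 lower, compared with 4.32% of all genes called higher. KO males were close together in Pcdhb3, at 2.38, 2.59 and 2.95 CPM (lowest, median and highest), and KO estrus mice were at 2.63, 3.78 and 5.91 CPM. The groups overlapped at the low end of estrus. The log2 fold change was 0.62 ± 0.20 (FDR = 0.0382), and the call was lost when any of 25 mice was left out in turn, KO estrus replicates 2, 3 and 6 and KO male replicates 1, 2, 4, 5 and 7 among them, and by edgeR and DESeq2, which called 0.520% and 1.27% of all genes higher. The median over members was 0.15, compared with -0.00 over all genes.

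Females as a whole were compared with males as the mean of the 4 stages. In WT mice 0 members were called, as were 0.0309% of all genes, and 0 members had an unadjusted p under 0.05 by limma, compared with 2.07% of all genes. By edgeR 0 and by DESeq2 1 member had an unadjusted p under 0.05. In KO mice 0 members were called, compared with 5.93% of all genes. At an unadjusted p under 0.05 there were 2, both beta genes, compared with 21.6% of all genes, and 0 by edgeR and DESeq2. The median log2 fold change of the members was -0.09 in WT and -0.12 in KO mice. Without the younger diestrus mice both counts were 0, with 3 and 2 members at an unadjusted p under 0.05 and medians of 0.04 and 0.00.

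Between genotypes, 2 beta genes were called lower in KO than in WT mice and 0 higher, compared with 1.9% of all genes called lower. Pcdhb4 had a log2 fold change of -0.48 ± 0.14 (FDR = 0.0376) and Pcdhb6 of -0.33 ± 0.10 (FDR = 0.0481). Mean Pcdhb4 was 1.46 ± 0.450 CPM in KO males (SD, n = 7) and 2.65 ± 0.988 in WT males (n = 5), 1.14 ± 0.445 and 1.87 ± 0.694 in proestrus (n = 4 and 5), and 2.44 ± 0.967 and 2.66 ± 0.518 in estrus (n = 6 and 7). In diestrus it was 1.22 ± 0.457 in KO mice and 1.58 ± 0.811 in WT mice (n = 6 each), so KO mice were lower by mean in each of these groups while their ranges overlapped. Pcdhb6 was at 2.34 ± 0.751 CPM in KO males and 3.33 ± 1.42 in WT males, with ranges of 1.57 to 3.67 and 1.30 to 5.29 that overlapped. Its log2 fold change was -0.66 ± 0.23 in males, -0.43 ± 0.23 in diestrus, -0.32 ± 0.18 in estrus, -0.12 ± 0.24 in proestrus and -0.11 ± 0.21 in metestrus (SE), with 0 calls in any single group.

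Both calls were sensitive to single mice. The count was 0 without any 1 of 10 mice (KO diestrus replicates 3 and 5, KO estrus replicate 3, KO metestrus replicates 1, 2 and 3, KO proestrus replicates 1 and 3, WT metestrus replicate 1 and WT proestrus replicate 1). By edgeR it was 0, with 3 members at an unadjusted p under 0.05, and by DESeq2 1, Pcdhb4 (FDR = 0.0451). In mice of mutation-carrying parents alone both lost the call and 4 gamma genes were called higher in KO mice, Pcdhgb6 (0.91 ± 0.26, FDR = 0.0170), Pcdhga11 (0.95 ± 0.31, FDR = 0.0363), Pcdhgc5 (0.57 ± 0.19, FDR = 0.0388) and Pcdhgc4 (0.82 ± 0.28, FDR = 0.0405). Of all genes 6.41% were called higher in KO mice in these mice. WT metestrus, WT proestrus and WT estrus held 1 such mouse each, and that of WT proestrus was replicate 5, with the lowest gamma sum.

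By median, the beta and gamma clusters leaned in opposite directions between genotypes. The median log2 fold change was -0.16 over the beta genes, with 20 of 21 negative, and 0.16 over the gamma genes, with 14 of 16 positive, compared with -0.00 over all genes. Without the younger diestrus mice these medians were -0.11, with 20 negative, and 0.12, with 13 positive. Gamma medians were 0.21 in males, 0.25 in metestrus, 0.25 in diestrus and 0.24 in estrus, but -0.24 in proestrus. Beta medians were -0.20, -0.22, -0.13 and -0.29 in these groups and 0.02 in proestrus. In each single group 0 members were called. The difference between proestrus and the other groups was not tested. The gamma sum was 14.1 CPM in KO proestrus replicate 4 and 11.5 CPM in WT proestrus replicate 5, each the lowest of its group. Members of a cluster are not independent of each other, so these counts of signs are descriptions. In mice of mutation-carrying parents alone the median over all 46 members was 0.11, compared with -0.03 in all mice.

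The change of each genotype difference with sex and stage was tested as well. For diestrus against males 0 members and 0.0% of all genes were called in the interaction with genotype, and 0 members had an unadjusted p under 0.05 by limma, edgeR or DESeq2, compared with 4.29% of all genes by limma. For females against males the interaction gave 0 members and 0.0% of all genes, with 0 members at an unadjusted p under 0.05 by all 3 tests and 3.03% of all genes by limma. The limma medians of the members were 0.07 and 0.03. Without the younger diestrus mice 0 members were called in either, with 1 at an unadjusted p under 0.05 for diestrus against males and 0 for females against males.

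Across the 12 comparisons 55 calls were made, of 23 different members, and 54 of them were lower values. Pcdhb3 was called in 5 comparisons and Pcdha5, Pcdhb5, Pcdhb10, Pcdhb12 and Pcdhb17 in 4 each. Comparisons that share the diestrus mice are not independent of each other.

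The related genes were described by lists of 12 non-clustered protocadherins, 21 chromatin regulators and 20 protein partners, of which 11, 20 and 20 were tested. Non-clustered protocadherins are single adhesion genes outside the clusters. In WT diestrus against WT estrus 7 of 11 were lower, compared with 13.1% of all genes called lower. Their median log2 fold change over the list was -0.41. Among those called were Pcdh17 (-0.44 ± 0.09, FDR = 0.00119), Pcdh1 (-0.77 ± 0.17, FDR = 0.00144), Pcdh8 (-0.85 ± 0.20, FDR = 0.00317) and Pcdh19 (-0.55 ± 0.14, FDR = 0.00476). In KO diestrus 4 of 11 were lower than in males, 7 than in proestrus and 6 than in estrus, with 0 higher in each. Of all genes 18.0, 19.4 and 19.3% were called lower in these comparisons. Pcdh1 was the first of the list in each, at -1.01 ± 0.14 against KO males (FDR = 8.21e-07).

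The chromatin regulators moved less and in both directions. In WT diestrus against WT estrus 6 of 20 were lower and 0 higher, compared with 13.1% of all genes called lower. The smallest FDRs were those of Pds5a, which acts on cohesin (-0.38 ± 0.11, FDR = 0.00970), and the DNA methyltransferase gene Dnmt3a (-0.36 ± 0.10, FDR = 0.00988). In KO diestrus against KO males 4 were higher and 1 lower, with the cohesin gene Smc1a first (0.53 ± 0.07, FDR = 7.52e-07). Of all genes 18.0% were called lower there and, in a fit with the mouse number as a block, 10.7% higher. Between genotypes Ctcf, the looping factor itself, was lower in KO mice (-0.12 ± 0.03, FDR = 0.0263). It was the 1 regulator of 20 called, compared with 1.9% of all genes called lower. With the younger diestrus mice left out 0 regulators were called, compared with 0.922% of all genes called lower.

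The protein partners include membrane proteases, kinases and actin regulators known to act with protocadherins. Compared with 13.1% of all genes called lower, 4 of 20 partners were lower in WT diestrus than in WT estrus and 0 higher. Among them were Adam10, a protease that sheds protocadherins (-0.54 ± 0.15, FDR = 0.00867), the neuroligin gene Nlgn2 (-0.37 ± 0.11, FDR = 0.0113) and Ncstn (-0.37 ± 0.13, FDR = 0.0313). In KO diestrus against KO males 6 were higher and 4 lower, and the share lower was near the 18.0% of all genes. In the fit with the mouse number as a block 10.7% of all genes were called higher. With only the older diestrus mice 0 genes of the 3 lists were called in the comparisons of diestrus with males, proestrus or estrus. At most 7 genes of all tested were called in any of these. In the younger against the older diestrus mice 8 of 11 non-clustered protocadherins were lower, with 4 lower and 1 higher of the 20 regulators and 6 lower and 3 higher of the 20 partners. Of all 16168 genes tested 20.1% were called lower and 2499 genes higher. All 5 nuclear-retained RNAs were lower, with a median of -2.28.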

How the data were processed

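RNA from the dorsal hippocampus of 55 mice in 10 groups had been made into libraries with a low-input kit that does not mark strand. Per the submitters' processing notes, reads were aligned to GRCm38 with STAR 2.7.9a, and the authors deposited counts per gene from featureCounts 2.0.3 and expected counts per transcript from Salmon 1.5.2. The authors counted only reads that aligned once and fell to a single gene, so reads on bases shared by several genes were not assigned. The deposited log2 CPM table served only to check the normalization, with identical values in the 16164 genes compared, and other deposited CPM tables were not used. A column with no matching sample (1 in all) was left out. Of 55774 lines of the gene counts, 287 repeated a gene, which left 55487 genes.

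After a filter that asked for over 1 CPM in 10 or more libraries, and without 5 ribosomal genes, 16168 genes were tested. For the filter CPM were scaled to the library total alone. TMM normalization, voom with quality weights per library and limma (R 4.3.3, limma 3.58.1, edgeR 4.0.16) were run in 1 model with a mean for each group, and genes were called at an FDR under 0.05. Females are the mean of 4 stages, and genotypes were compared as the mean over the 5 sex and stage groups. The edgeR quasi-likelihood test and DESeq2 1.42.0 were alternatives, and transcript counts were rounded and summed per gene for another. Exon lengths came from a GENCODE annotation of the same assembly whose release differs from that of the authors. The bases free of other genes may therefore differ from those that could be counted. Sums of CPM carry no test. Each library is 1 mouse, so p-values measure the spread between mice. The limma, edgeR and DESeq2 fits had been tested on simulated counts for KO diestrus against KO males and for the interaction of genotype with diestrus against males.

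The members and lists were chosen with earlier results of these data known. Genes named with values are the members called in each of 12 comparisons (at most the 8 with the smallest FDR), the C-type members, the highest and lowest members per kb, and at most 4 called genes per related list and comparison. Other members are named where a count is given. The split of diestrus mice at 14 weeks was chosen after the data were seen. A gene that this rule also names is not reported here.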

Additional observations from a re-analysis of the deposited data

Results flagged for a closer look

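In groups of 4 to 10 mice, the mouse farthest from the others was compared with the spread of its group by Dixon's test on log2(CPM + 0.5), for each member named in the comparisons and each cluster sum. Of 290 tests 22 passed (7.59%), and chance alone gives about 1 in 20. Values below are CPM.

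A mouse lay far below the others of its group in 14 cases. KO proestrus replicate 4 was at 14.1 in the gamma sum (others 32.0 to 37.8) and at 3.61 in Pcdhgc5 (others 8.98 to 9.89). WT proestrus replicate 5 was at 3.10 in Pcdhgc5 (others 10.0 to 15.1) and at 0.706 in Pcdhb4 (others 1.83 to 2.52). KO male replicate 6, which had the lowest beta sum outside diestrus, was at 1.27 in Pcdhb12 (others 2.03 to 2.60) and at 0.587 in Pcdhb4 (others 1.29 to 1.92). WT male replicate 1 was at 4.74 in Pcdhb17 (others 9.21 to 10.7), WT male replicate 3 at 0.975 in Pcdhb4 (others 2.72 to 3.55) and WT male replicate 4 at 1.14 in Pcdhb10 (others 1.87 to 2.10). KO diestrus replicate 5 was at 0.547 in Pcdha5 (others 0.990 to 1.18), and KO male replicate 3 at 1.51 in Pcdhb21 (others 2.85 to 4.22). In WT metestrus replicate 2 was at 5.13 in Pcdhac2 (others 8.71 to 9.62) and replicate 3 at 3.42 in Pcdhb16 (others 4.63 to 4.91). WT proestrus replicate 3 was at 1.95 in Pcdhb19 (others 3.05 to 3.59).

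A mouse lay far above the others in 8 cases. KO estrus replicate 2 was at 3.73 in Pcdhb12 (others 2.02 to 2.48) and at 5.08 in Pcdhb16 (others 3.34 to 3.88). KO diestrus replicate 1, one of the older mice, was at 13.5 in Pcdhb9 (others 5.29 to 7.44). WT metestrus replicate 4 was at 4.11 in Pcdhb12 (others 2.37 to 2.46) and WT male replicate 2 at 2.59 in Pcdhgc4 (others 1.47 to 1.59). WT proestrus replicate 1 was at 2.27 in Pcdha7 (others 0.978 to 1.27), WT proestrus replicate 4 at 5.91 in Pcdhb20 (others 4.46 to 4.81) and KO proestrus replicate 2 at 3.62 in Pcdhb5 (others 2.04 to 2.17).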

How the results depend on the processing

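The counts of members called depended on the test and on the younger diestrus mice, and the cause was not tested. In the order WT diestrus against proestrus and estrus, KO diestrus against males, proestrus and estrus, KO estrus against males, and KO against WT, the main counts were 3, 15, 9, 8, 17, 1 and 2. They were 0 in all by the edgeR quasi-likelihood test, 0, 4, 0, 0, 0, 0 and 1 by DESeq2, 0, 5, 0, 1, 0, 0 and 0 without quality weights, 0, 12, 2, 3, 4, 0 and 0 with no filter on low counts, 0, 8, 0, 6, 4, 1 and 0 with age in the model, and 0, 9, 4, 5, 10, 0 and 1 with transcript counts, where Pcdhgc5 was higher in KO than in WT mice (0.66) in place of members lower. Shares of all genes called lower (higher in KO estrus against males) were likewise 0.043, 0.46, 4.7, 5.0, 0.74, 1.3 and 0.73% by DESeq2. They were 0.025, 2.6, 4.6, 5.5, 1.4, 0.30 and 0.61% without quality weights and 0.38, 4.2, 4.5, 4.7, 4.5, 0.11 and 0.43% with no filter. With age they were 3.5, 7.7, 5.2, 16.5, 12.9, 1.9 and 1.6%. With transcript counts they were 0.59, 5.3, 9.4, 10.5, 9.2, 1.3 and 0.61%, the last higher. The counts of members also varied with the mice kept. With only mice of mutation-carrying parents they were 1, 8, 7, 8, 16, 0 and 4, the last all higher in KO mice, with 25 lower in WT diestrus against WT males and 1 higher, Pcdhb16 (1.32), in the interaction of genotype with diestrus against males. In these mice 22.9% of all genes were called lower in WT diestrus against WT males, 6.41% higher in KO against WT mice and 0.229% higher in the interaction. WT metestrus, WT proestrus and WT estrus held 1 mouse each of such parents, assumed to vary like the other groups. With only diestrus mice of 14 weeks or more they were 0, 0, 0, 0, 0, 1 and 0, and with only younger ones 16, 31, 17, 10, 20, 1 and 2, the last 1 higher and 1 lower, with 16 in WT diestrus against WT males. In the comparisons of diestrus with males, proestrus or estrus, the older diestrus mice gave 0 to 7 called genes of all tested, and the younger ones 13.9 to 23.6% of all genes called lower.

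Leaving out 1 mouse at a time gave 0 to 10 members in WT diestrus against WT males, 0 to 15 against WT proestrus and 0 to 30 against WT estrus, and in KO mice 4 to 13 in diestrus against males, 4 to 11 against proestrus, 8 to 21 against estrus and 0 to 1 in estrus against males. For KO against WT it gave 0 to 3, with 0 in 10 and 1 in 20 of 55 omissions, and 0 in the other comparisons. Shares of all genes called are not given for the omissions, so these counts show only how calls depend on single mice. In WT diestrus against WT proestrus 1 member remained without KO diestrus replicate 2 or 4, KO male replicate 6, KO proestrus replicate 3 or WT proestrus replicate 4. Of the 55 calls, edgeR kept 0, DESeq2 5 of 48 with a value, no quality weights 6, no filter 19, age 19, mutation-carrying parents 38, transcript counts 26, older diestrus mice 1 and younger diestrus mice 54.

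Log2 fold changes turned positive with only the older diestrus mice, none of them called, for Pcdhb17 (0.34), Pcdhb19 (0.18), Pcdhb12 (0.16), Pcdhb3 (0.24), Pcdhb21 (0.021), Pcdhb10 (0.025) and Pcdhb7 (0.10) in KO diestrus against KO estrus, for Pcdhb17 (0.28), Pcdhb12 (0.31), Pcdhb10 (0.12), Pcdhb20 (0.17) and Pcdhb7 (0.13) against KO males, for Pcdhb12 (0.052), Pcdhb17 (0.35), Pcdhb21 (0.023) and Pcdhb3 (0.38) against KO proestrus, and for Pcdhga2 (0.11) and Pcdhb7 (0.033) in WT diestrus against WT estrus. With transcript counts Pcdhgc5 was at 0.23 in KO diestrus against KO estrus, and with mutation-carrying parents alone Pcdha5 was at 0.66 in WT diestrus against WT proestrus. Mean cluster sums from transcript counts were 128 (alpha), 103 (beta) and 362 CPM (gamma).

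The first part of the mouse number is shared by 26 mice in 8 sets. As a replicate block these had a correlation of -0.0025, and the block kept all 55 calls and changed no count of members (3, 15, 9, 8, 17, 1 and 2 in the order above). Members with mean counts near 1 per library, such as Pcdha4 and Pcdhb1, and bases shared between genes limit what these counts can show, and 5 older diestrus mice limit the comparisons made with them alone.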
